A study of Mus musculus with 4 samples.

Results

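RLTR rows are rodent long terminal repeat elements, the LTRs and internal parts of endogenous retroviruses that RepeatMasker, the program that annotates repeats in a genome, names with the prefix RLTR and a number. A total of 151 such rows were taken from the 1072 rows of a table of transposable element (TE) read counts. The rows were chosen by name alone: every row whose name begins with RLTR, without those beginning RLTR6 or RLTR4 and without RLTRETN_Mm and RLTR13G. Applied to the letters, the exclusion of RLTR4 also removed 28 rows numbered RLTR40 to RLTR49, so that 36 of 187 RLTR rows fell outside. Of the 151 rows, 122 belonged to the ERVK family, 22 to ERV1 and 3 to ERVL, and the other 4 had an uncertain family or none.

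An endogenous retrovirus enters the genome as an internal part, which encodes the viral proteins, between a pair of LTRs. The LTR holds the promoter, and recombination between both LTRs of a copy often removes the internal part and leaves a solo LTR. In mouse embryonic stem cells (ESCs) many of these copies are kept silent by KRAB zinc finger proteins, TRIM28 and the histone methyltransferase SETDB1, together with DNA methylation, while LTRs of some families, among them RLTR9 and RLTR13D, carry binding sites of pluripotency factors and can act as enhancers. Here 146 rows were LTR rows, and 5 were internal rows: RLTR1B-int, RLTR10-int, RLTR14-int, RLTR18-int and RLTR19-int. Each row adds up the reads of all copies of its element, so a value does not show which copies were transcribed, nor whether from their own promoter or as part of another transcript.

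The RNA-seq data came from the mouse E14 ESC line (strain label 12910la), grown on gelatin with serum and LIF. There were 2 wild-type (WT) samples and 2 samples in which the kinase gene Pim3 was disrupted (Pim3-/-), 1 library each. The Pim3-/- samples were 2 clones made with CRISPR/Cas9 and a pair of guides, with bases lost or inserted at the target sites, and nothing in the labels tells which library is which clone, so the spread within this group is the spread between clones. With 2 libraries in each group, an exact two-sided permutation test of a single row could not give a p below 0.333. The comparison therefore used a model fitted across all rows.

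The gene table held 22029427 to 25668307 counts per library and the table of TEs held 546500 to 821065. TE counts were 2.36% and 2.65% of the gene counts in WT libraries and 3.59% and 3.67% in Pim3-/- libraries, so the scaling between libraries matters for every fold change below. The Pim3 gene itself was counted 4392 and 4953 times in WT and 4970 and 4804 times in Pim3-/- libraries, and therefore did not check the labels. Markers of some other cell states moved with the groups. All 6 tested of 7 primitive endoderm genes were higher, with a summed level of 2.98 and 5.12 CPM (counts scaled to 1e+06 per library, here in the gene table) in WT against 33.8 and 18.7 CPM in Pim3-/- libraries, and all 6 markers of the 2-cell-like state were higher, with 9.19 and 8.30 against 95.8 and 28.6 CPM. Of 8 pluripotency genes, Klf4 and Sall4 were higher and Pou5f1 and Nanog lower (summed level 5057 and 4979 against 3578 and 3333 CPM). These 8 genes had a median log2 fold change of -0.04. The lower sum lay mostly in Pou5f1 (2356 and 2138 against 1104 and 957 CPM) and Nanog. In contrast, the paper reports higher Nanog (qPCR and western blot) and undisturbed Oct4 (Pou5f1) expression in Pim3-/- ESCs. Why these results differ was not tested. Gene CPM depended on scaling factors of 0.83 and 0.88 in WT and 1.17 and 1.17 in Pim3-/- libraries. The summed levels of trophoblast genes (65.6 and 67.6 against 52.4 and 85.1 CPM) and fibroblast genes (22.7 and 21.6 against 25.5 and 20.5 CPM) overlapped between groups. The trophoblast sum lay mostly in Tfap2c (59.1 and 60.5 against 35.1 and 56.1 CPM), which did not pass. Of the 5 tested trophoblast genes, Eomes (log2 fold change 2.24) and Gata3 (2.28) were higher and 0 lower, and the median was 1.44. Neuroectoderm genes summed lower (143 and 135 against 107 and 95.0 CPM) and mesoderm genes higher (6.32 and 5.17 against 13.5 and 24.2 CPM). The neuroectoderm sum lay mostly in Tubb3, which was lower (127 and 120 against 85.7 and 58.8 CPM), while Otx2 was higher (log2 fold change 1.29). The mesoderm sum lay mostly in Eomes (3.86 and 3.05 against 10.5 and 22.2 CPM), which is also a trophoblast gene here. Among all tested genes, 17.6% were higher and 16.2% lower. The part of these states in the results on RLTR rows was not tested. In bulk RNA, fewer cells of a type and less RNA per cell cannot be told apart.

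RLTR rows together made up 3.81% and 3.65% of TE counts in WT libraries and 3.73% and 3.84% in Pim3-/- libraries, so the ranges of the groups overlapped. The level of a row is given as CPM of the TE table, with trimmed mean of M-values (TMM) scaling. The median row stood at 135 CPM and the highest, RLTR9E, at 2249 CPM. In all, 5 rows lay at 1000 CPM or above, 83 between 100 and 1000 CPM, 55 between 10 and 100 CPM and 8 below 10 CPM. A count of 3 corresponded to 5.89 and 4.67 CPM in WT and to 3.52 and 3.40 CPM in Pim3-/- libraries, so the lowest rows were near the counting limit. A single row, RLTR9A4, had no count in any library. These levels are not per length, and therefore do not rank elements of different length.

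Of the 151 rows, 140 passed the filter on low counts and were tested, among them 135 LTR rows and all 5 internal rows. At an adjusted p under 0.05 (edgeR quasi-likelihood test, Benjamini-Hochberg adjustment over all 828 tested TE rows), 11 RLTR rows were lower and 0 were higher in Pim3-/- than in WT cells. Among all tested TE rows 5.31% were lower and 3.38% higher, so the 11 of 140 rows (7.86%) stood against 44 of 828. Among the called lower rows, a fall of at least 2-fold was reached by 6 of 11 RLTR rows and 21 of 44 TE rows. Those 21 rows were 2.54% of all tested TE rows. No RLTR row was both called and at least 2-fold higher, against 18 TE rows (2.17%). At an unadjusted p under 0.05, 29 RLTR rows were lower and 16 higher, where the shares of all rows were 13.4% and 12.6%, respectively. The DESeq2 Wald test also called 11 lower and 0 higher, against 35 and 14 of all TE rows. Fits without 1 library took their spread from the group that kept both libraries. Their numbers of calls therefore do not show which libraries the 11 calls rested on. The log2 fold changes of all 11 rows stayed negative without either WT library, from -1.18 to -1.53 for RLTR34B_MM and from -0.86 to -0.95 for RLTR11B, and that of RLTR10F shrank from -0.72 to -0.47 without WT 1.

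The fold changes of the RLTR rows were centred near 0, with 66 positive and 74 negative values, a median log2 fold change of -0.02 and a range from -1.56 to 1.54. The median of all tested TE rows was 0.01. When the libraries were scaled by the gene table instead, the median of all TE rows moved up by 0.26, and 25 RLTR rows were higher and 10 lower, against 174 and 34 of all TE rows. With totals of the TE table and no TMM the shift was 0.18, with 5 RLTR rows higher and 9 lower, against 69 and 27 of all TE rows. Relative to the other TE rows the RLTR rows hardly moved: their median minus that of all rows lay between -0.01 and -0.07 under each scaling, filter and left-out library. The directions below are thus directions relative to the bulk of TE transcripts.

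**Figure D1:**
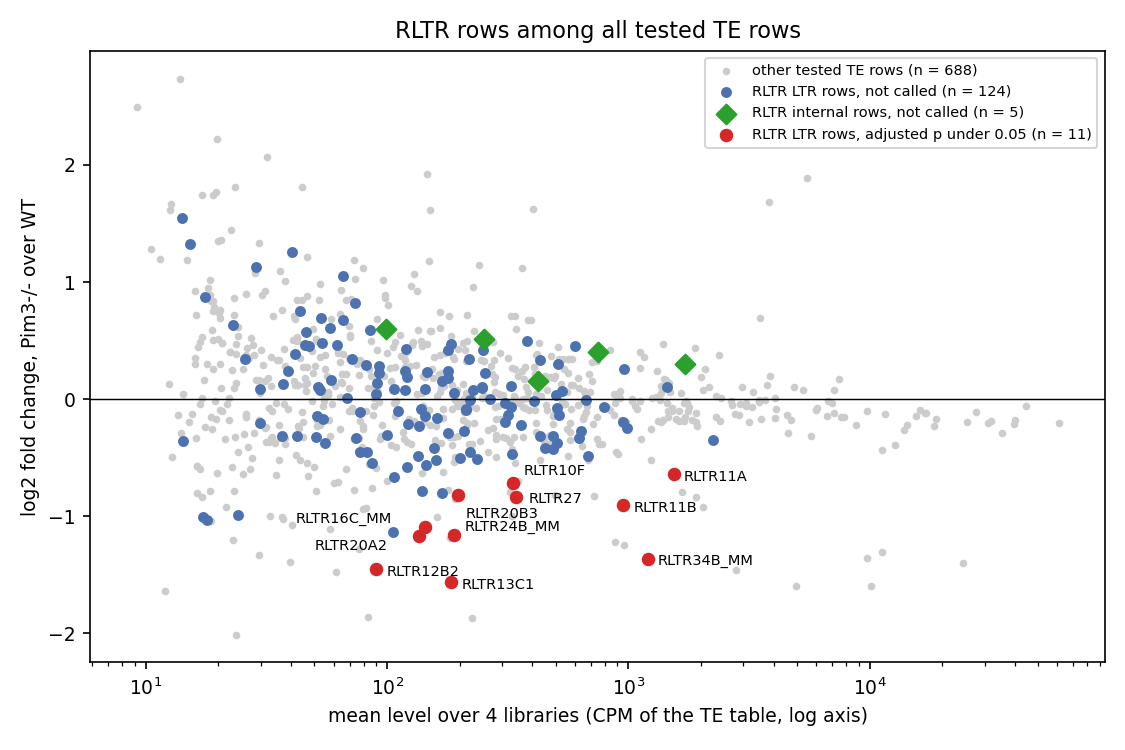
Each point is 1 tested row of the TE table, with its mean level over the 4 libraries on the horizontal axis (CPM, log axis) and its log2 fold change, Pim3-/- over WT, on the vertical axis; grey points are other TE rows, blue points RLTR rows, green diamonds the 5 internal rows and red points the 11 RLTR rows with an adjusted p under 0.05. The red points all lie below 0, from -0.64 to -1.56, and the green diamonds all lie above 0.

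The most abundant of the lower rows were RLTR34B_MM, RLTR11A and RLTR11B, LTRs of the ERVK family. RLTR34B_MM stood at 1932 and 1535 CPM in WT and at 612 and 732 CPM in Pim3-/- libraries. Both clones lay more than 2-fold below the lower WT value, and the log2 fold change was -1.36 (SE 0.14, adjusted p = 7.74e-04). RLTR11B stood at 1268 and 1209 CPM in WT and at 656 and 664 CPM in Pim3-/- libraries, and RLTR11A at 2030 and 1728 against 1262 and 1144 CPM. The replicates of RLTR11B lay close together, and its log2 fold change of -0.91 (SE 0.11, adjusted p = 0.00155) was larger than that of RLTR11A, -0.64 (SE 0.11, adjusted p = 0.0119). Together these 3 rows held 12.8% and 11.6% of all RLTR counts in WT libraries and 7.05% and 7.21% in Pim3-/- libraries. RLTR11A2, a near relative by name, stood at 1082 and 949 against 964 and 812 CPM and overlapped between groups (-0.19, adjusted p = 0.365). RLTR11A, RLTR11A2 and RLTR11B may share reads, since similar LTRs cannot always be told apart in short reads and how such reads were assigned in the deposited counts is not stated in the sources used here.

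The other lower rows had moderate levels. RLTR27 fell from 463 and 413 CPM to 246 and 244 CPM (log2 fold change -0.84), and RLTR10F from 477 and 352 CPM to 233 and 269 CPM (-0.72). RLTR20B3 and RLTR20A2, a pair of rows with the same number, stood at 234 and 266 against 150 and 134 CPM (-0.82) and at 226 and 150 against 89.1 and 77.1 CPM (-1.16). In all 4 of these rows both clones lay below both WT cultures, a separation favoured by picking rows by their adjusted p. RLTR16C_MM fell from 212 and 179 CPM to 80.9 and 102 CPM (-1.09). RLTR24B_MM, the only ERV1 row among the 11, fell from 287 and 240 CPM to 91.4 and 143 CPM (-1.16). The adjusted p-values of these 6 rows lay between 0.0119 for RLTR27 and 0.0498 for RLTR10F (edgeR quasi-likelihood test), so RLTR10F was just inside the threshold. When the libraries were scaled by plain gene totals, which moved the median of all TE rows up by 0.71, 80 RLTR rows were higher and 3 lower, against 542 and 14 of all 828 TE rows, and RLTR10F and RLTR11A turned to 0.012 and 0.080.

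Among the 11 rows, RLTR13C1 and RLTR12B2 had the largest changes. RLTR13C1 was counted 148 and 168 times in WT and 107 and 54 times in Pim3-/- libraries, or 291 and 262 against 125 and 61.2 CPM (log2 fold change -1.56, SE 0.30, adjusted p = 0.0169). Its clones differed more than 2-fold from each other, so the size of its change depended on the clone. RLTR12B2 had the fewest counts of the 11, 79 and 70 in WT and 40 and 43 in Pim3-/- libraries, or 155 and 109 against 46.9 and 48.8 CPM (-1.45, SE 0.27, adjusted p = 0.0169). Its WT cultures were farther apart than its clones.

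**Figure D2:**
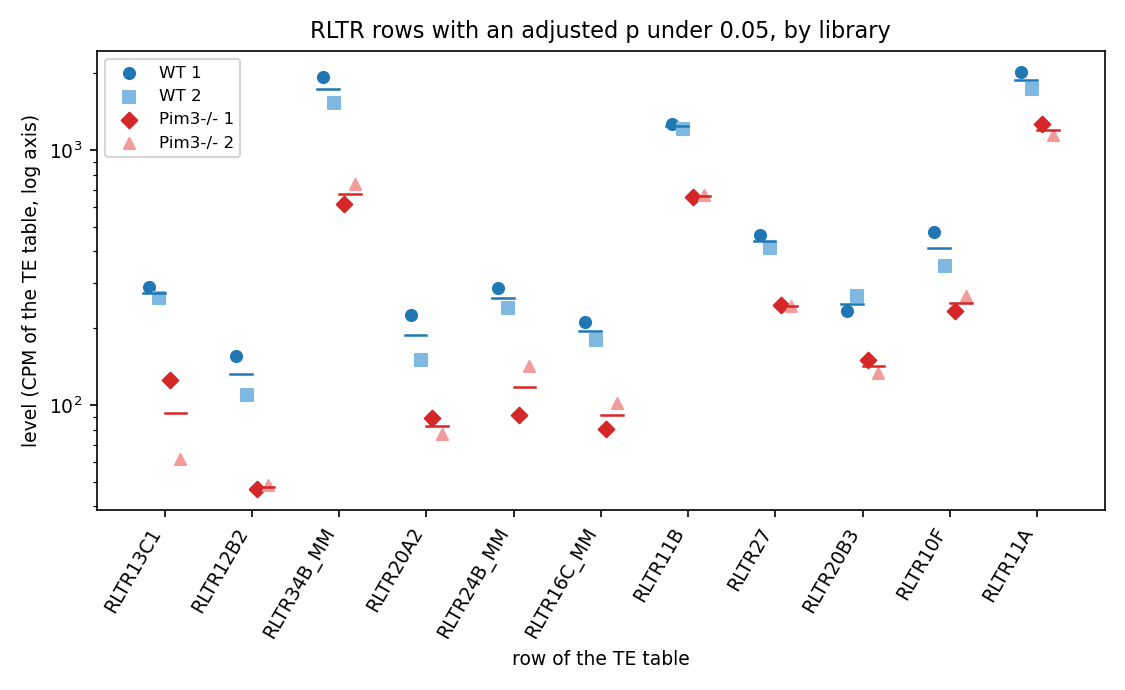
Level of the 11 RLTR rows with an adjusted p under 0.05 in each of the 4 libraries (CPM of the TE table, log axis), with 1 point for each WT culture and each Pim3-/- clone. In all 11 rows both clones lie below both WT cultures, a separation favoured by picking the rows by their adjusted p. The widest gap between clones is that of RLTR13C1, at 125 and 61.2 CPM.

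The 11 lower rows carried 18.5% and 16.7% of all RLTR counts in WT libraries and 10.0% and 10.3% in Pim3-/- libraries. They were spread over 9 RLTR numbers, of which RLTR11 and RLTR20 had 2 rows each. A value that does not depend on the scaling between libraries is the share of a row among all rows of its own number in the same library. RLTR27 has no other row of its number, and for each of the other 10 the share was lower in both clones than in both WT cultures. RLTR34B_MM made up 89.5% and 86.2% of the RLTR34 counts in WT and 74.6% and 82.0% in Pim3-/- libraries. RLTR24B_MM made up 55.7% and 50.0% of the RLTR24 counts in WT and 24.4% and 35.2% in Pim3-/- libraries, so that the other RLTR24 row was the larger of the pair in both clones. The share of RLTR16C_MM in RLTR16 was 33.2% and 31.1% against 15.6% and 18.1%, and that of RLTR11B in RLTR11 was 27.6% and 29.2% against 20.8% and 22.9%. The difference was narrowest for RLTR11A, with 44.2% and 41.7% against 40.0% and 39.5%. These shares come from the same counts as the fold changes, so lower shares are favoured by picking the rows by their adjusted p. They were not tested.

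In the 5 RLTR numbers with the most tested rows, RLTR13, RLTR20, RLTR9, RLTR10 and RLTR12, values lay on both sides of 0. RLTR13, with 22 rows the largest number, had 10 positive and 11 negative fold changes among its 21 tested rows, from RLTR13C1 at -1.56 to 1.26, with 1 row lower. RLTR20, with 16 rows, had 6 positive and 10 negative values and a median of -0.05, although 2 of its rows were lower. RLTR12 had 4 positive and 5 negative values, and its RLTR12B2 at -1.45 stood beside a row at 0.69. In RLTR9, with 13 rows and 11 tested, 7 values were negative and 4 positive, the median was -0.33 and no row passed. The RLTR9 rows summed to 5516 and 4465 CPM in WT and to 3901 and 4017 CPM in Pim3-/- libraries, without overlap between groups. The RLTR11 rows, at 4591 and 4147 against 3153 and 2899 CPM, did not overlap either. Nor did the RLTR34 rows, at 2159 and 1781 against 821 and 893 CPM. Such a separation was not particular to these numbers. The sums of RLTR12 and RLTR13 (2450 and 2492 against 1979 and 2147 CPM) were also lower in both clones. Those of RLTR1, RLTR14 (722 and 600 against 862 and 910 CPM) and RLTR19 were higher in both clones. The sums of RLTR10 and RLTR20 overlapped. All 3 RLTR14 rows had positive values, with a median of 0.50, and no row passed.

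**Figure D3:**
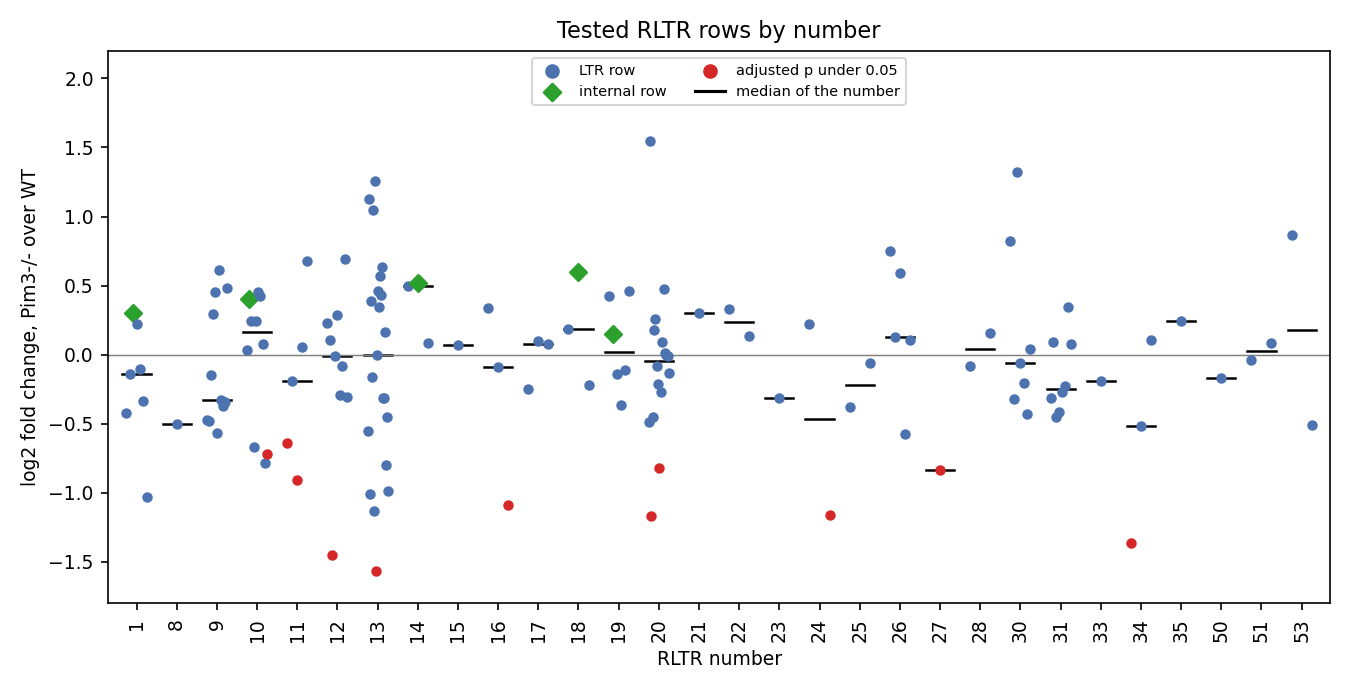
Log2 fold change, Pim3-/- over WT, of each tested RLTR row, arranged by RLTR number; circles are LTR rows, green diamonds internal rows, red circles rows with an adjusted p under 0.05, and the black line is the median of each number. Within RLTR12, RLTR13 and RLTR20 the rows lie on both sides of 0, and the 11 red circles come from 9 numbers.

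The largest positive values were those of rows with few counts, which did not pass. RLTR20A1, named here after its values were seen, was counted 6 and 2 times in WT and 20 and 16 times in Pim3-/- libraries (log2 fold change 1.54, adjusted p = 0.145). In all, 34 tested RLTR rows had both clones above both WT cultures and 47 had both below, where the shares of all tested TE rows were 29.2% and 29.1%, respectively. The count above is 24.3% of the RLTR rows, and the count below 33.6%. Clones differed more than 2-fold in 2 tested rows, RLTR13C1 and RLTR9A2, and WT cultures in 5, RLTR26, RLTR13B4, RLTR26B_MM, RLTR19A2 and RLTR20A1; rows outside the naming rule were chosen here after their values were seen. RLTR9A2 stood at 968 and 616 CPM in WT and at 299 and 830 CPM in Pim3-/- libraries, so that 1 clone was below and the other between the WT values (-0.48, adjusted p = 0.473).

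The internal rows had values on the other side of 0 from the 11 lower LTR rows, but none of the 5 passed the test. Internal RLTR rows outside the rule lay on both sides of 0. Examples, named here after their values were seen, are RLTR44-int (-1.01) and RLTR6-int (1.12). Of the 5 rows, RLTR1B-int, the most abundant, stood at 1335 and 1742 CPM in WT and at 1806 and 1986 CPM in Pim3-/- libraries (log2 fold change 0.30, SE 0.13, adjusted p = 0.192). RLTR10-int stood at 618 and 669 against 942 and 763 CPM (0.41, SE 0.14, adjusted p = 0.106). RLTR14-int stood at 214 and 199 against 274 and 316 CPM (0.52, SE 0.17, adjusted p = 0.0969). In these 3 rows, as in the following ones, both clones lay above both WT cultures, which held for 29.2% of all tested TE rows. RLTR18-int, with 34 to 116 counts per library, stood at 66.7 and 90.4 against 108 and 132 CPM (0.60, SE 0.26, adjusted p = 0.186), and RLTR19-int at 395 and 404 against 442 and 444 CPM (0.15, SE 0.13, adjusted p = 0.496). The 5 rows together held 6.42% and 8.02% of the RLTR counts in WT and 9.95% and 10.3% in Pim3-/- libraries. RLTR10-int and RLTR14-int passed with totals of the TE table, and all but RLTR19-int passed with the scaling by the gene table, in which 174 of 828 TE rows were higher.

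Within a library, the ratio of an internal row to its LTR rows does not depend on scaling. RLTR1B-int was set against the LTR row of the same name, RLTR1B, and the other internal rows against all LTR rows of their number. For RLTR18-int, the ratio to the 2 RLTR18 LTR rows was 0.129 and 0.187 in WT and 0.263 and 0.258 in Pim3-/- libraries, a mean difference of 0.74 in the log2 ratio with no overlap between groups, and of 0.48 without WT 1. For RLTR10-int, the ratio to 9 LTR rows was 0.236 and 0.297 in WT and 0.345 and 0.342 in Pim3-/- libraries, a difference of 0.38, also with no overlap, and of 0.21 without WT 1. Set against the most abundant LTR row of its number alone, RLTR10C, the difference for RLTR10-int was 0.03, since RLTR10C itself stood at 930 CPM in one clone and 465 CPM in the other. The ratios overlapped between groups for RLTR1B-int (2.27 and 3.55 against 3.21 and 4.76), RLTR14-int (0.421 and 0.498 against 0.467 and 0.532) and RLTR19-int (1.02 and 1.23 against 1.05 and 1.08). Set against all 8 LTR rows numbered RLTR1, the ratio of RLTR1B-int was 0.889 and 1.40 in WT and 1.47 and 1.76 in Pim3-/- libraries, with no overlap and a difference of 0.53. For RLTR14 the internal row and the LTR rows thus had similar values, the LTR rows at 508 and 400 CPM in WT and at 587 and 594 CPM in Pim3-/- libraries. These differences were not tested, since an exact permutation test of 2 against 2 libraries cannot give a p below 0.333.

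**Figure D4:**
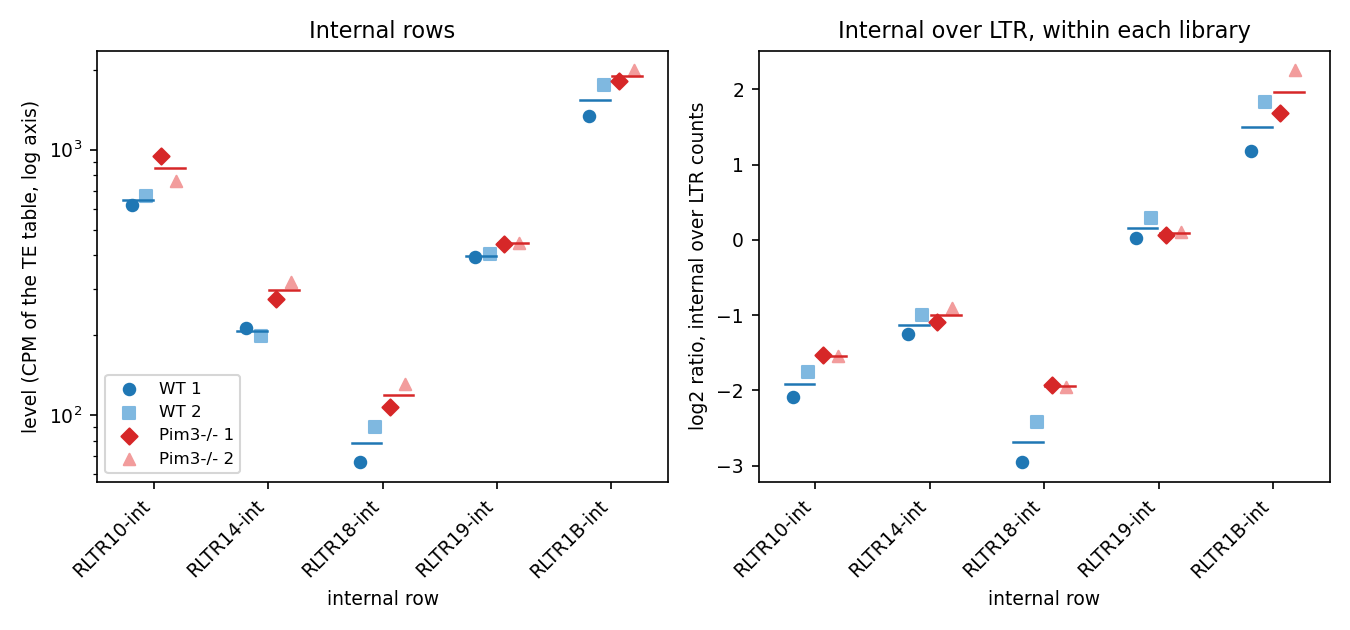
Left, level of the 5 internal rows in each library (CPM of the TE table, log axis); right, log2 ratio of the counts of each internal row to the summed counts of the LTR rows of its number (for RLTR1B-int, to RLTR1B alone) within each library, with lines at the group means. Levels of all 5 rows are higher in both clones than in both WT cultures, as for 29.2% of all tested TE rows. The plotted ratios separate the groups for RLTR10-int and RLTR18-int.

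A set of 5 LTR rows picked as known enhancers did not pass the test. RLTR9E, the most abundant row, stood at 2780 and 2255 CPM in WT and at 2109 and 1853 CPM in Pim3-/- libraries, with both clones below both cultures (log2 fold change -0.34, adjusted p = 0.114). RLTR9D stood at 697 and 689 against 598 and 505 CPM (-0.33, adjusted p = 0.161), and RLTR17 at 1058 and 1095 against 822 and 991 CPM (-0.25, adjusted p = 0.231). The value of RLTR17 turned to 0.02 with the scaling by the gene table. RLTR13D6 was variable in both groups, at 163 and 266 against 98.5 and 150 CPM (-0.80, SE 0.29, adjusted p = 0.125). RLTR13D5 had few counts, 27 and 37 in WT and 53 and 55 in Pim3-/- libraries (0.17, SE 0.27, adjusted p = 0.735). With the replicate number as a block, RLTR9E (adjusted p = 0.0239) and RLTR13D6 (adjusted p = 0.00715) were lower in the edgeR test. The replicate numbers did not pair the samples, however (correlation of deviations 0.02). That fit called 63 of all TE rows lower, where the main fit called 44. RLTR9E and RLTR9D were also lower without Pim3-/- 1, and RLTR17 and RLTR13D6 without Pim3-/- 2, fits in which more TE rows passed in all.

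Other abundant LTR rows differed little. RLTR17B_Mm stood at 1372 and 1409 CPM in WT and at 1454 and 1528 CPM in Pim3-/- libraries (log2 fold change 0.10, SE 0.09, adjusted p = 0.528), RLTR20A4 at 830 and 913 against 1082 and 1003 CPM (0.26, SE 0.11, adjusted p = 0.187) and RLTR25B at 750 and 865 against 825 and 722 CPM (-0.06, SE 0.13, adjusted p = 0.797). The groups of RLTR25B overlapped, and those of the other two did not. The 10 most abundant rows together held 35.3% and 35.4% of RLTR counts in WT and 32.3% and 32.5% in Pim3-/- libraries. By level, 2 of the 5 rows at 1000 CPM or above were lower, 8 of 83 between 100 and 1000 CPM, and 1 of the 52 tested rows between 10 and 100 CPM. Among all tested TE rows the shares that were lower also rose with level, at 19 of 130, 20 of 352 and 5 of 345.

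Among the families, 10 of 115 tested ERVK rows and 1 of 20 tested ERV1 rows were lower, and the medians were -0.01 and -0.08. The ERVK rows of other names, the group most like these rows, had 6 higher and 7 lower of 122 tested, with a median of -0.04. Of the 36 RLTR rows outside the naming rule, 30 were tested, and 2 were higher and 5 lower. The rows numbered RLTR40 to RLTR49 among them had 0 higher and 3 lower of 23 tested. Differences between these groups of rows were not tested.

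**Figure D5:**
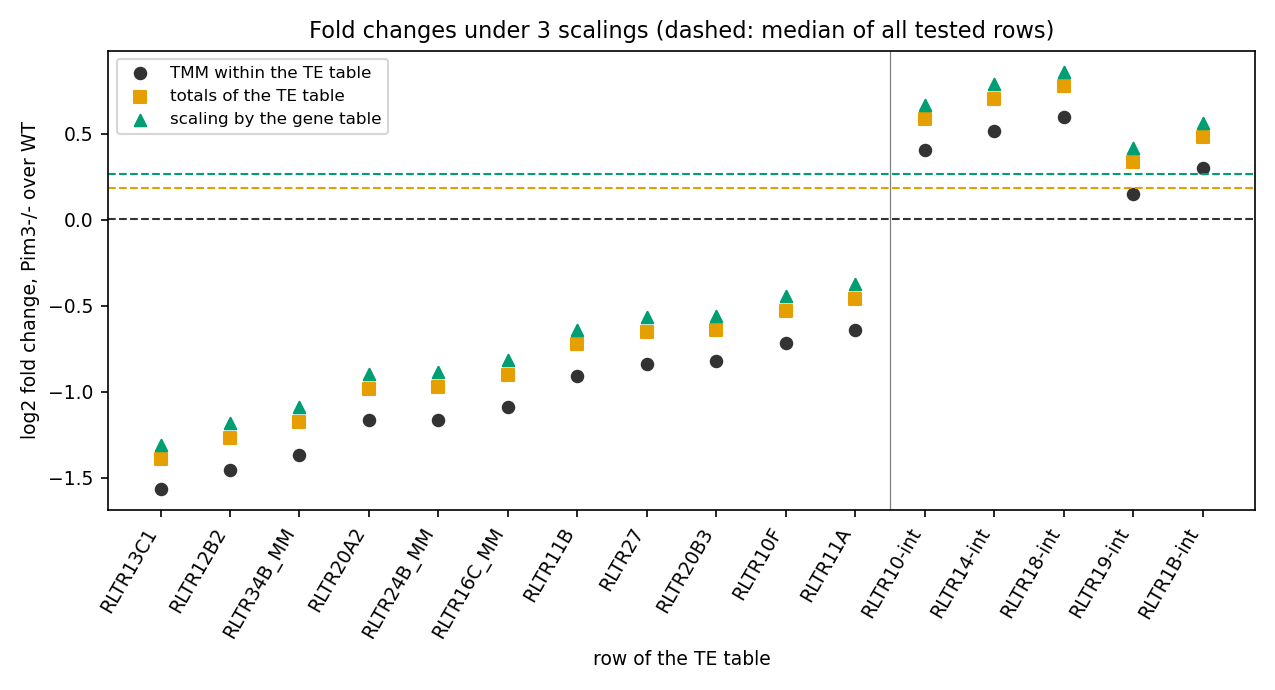
Log2 fold change, Pim3-/- over WT, of the 11 lower LTR rows (left of the vertical line) and the 5 internal rows (right) under 3 scalings between libraries, with dashed lines at the median of all tested TE rows for each scaling. Each scaling moves all 16 rows up or down by a similar amount together with its dashed line, and under these 3 scalings the 11 rows stay below 0 and the internal rows above 0.

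Genes linked to the silencing of endogenous retroviruses were examined in the gene table with a list of 40 genes. The list was mixed: it also held the demethylase genes Tet1, Tet2 and Kdm4c, which did not pass. Of the 40 genes, 3 were higher and 11 lower in Pim3-/- cells (edgeR quasi-likelihood test, adjusted over 18444 genes). Among all tested genes, 17.6% were higher and 16.2% lower. Dnmt3b, a de novo DNA methyltransferase, fell from 128 and 157 CPM of the gene table to 66.7 and 49.3 CPM (log2 fold change -1.30, adjusted p = 0.00636). Sumo2, a modifier protein used in TRIM28-dependent silencing, fell from 503 and 488 CPM to 228 and 199 CPM (-1.21, adjusted p = 0.00562). The zinc finger gene Zfp932 (-1.30) and the genes of the deacetylase Hdac1 (-0.98), the chromatin remodeller Hells (-0.96), the histone chaperone subunit Chaf1b (-0.92), the heterochromatin proteins Cbx3 (-0.83) and Cbx1 (-0.71), Smarcad1 (-0.69), the histone methyltransferase Ehmt2 (-0.67) and Morc3 (-0.56) were lower as well. Zfp809, a zinc finger protein known for silencing of retroviruses in ESCs, was higher, at 4.18 and 4.02 CPM in WT against 7.83 and 8.26 CPM in Pim3-/- libraries (0.97, adjusted p = 0.0247), as were the deacetylase genes Hdac4 (0.63) and Hdac5 (0.73). Setdb1 (0.21) and Trim28 (-0.68) did not pass. When the libraries were scaled by plain gene totals, 10 were higher and 3 lower, against 35.8% and 5.93% of all tested genes. The direction of this list thus depended on the scaling. Fits without 1 library took their spread from the other group alone, and so did not show how the list depended on single libraries. Whether these genes and the RLTR rows are linked was not tested.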

How the data were processed

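RNA-seq was performed on DNase-treated RNA with an mRNA library kit. The authors deposited raw read counts per gene and per TE row, and the counts are not normalized. Their methods name Cutadapt, Hisat2, mm10, Ensembl genes and RepeatMasker TEs, and a figure legend names Squire, a TE quantification tool, while the submitters' processing notes list Trim Galore, STAR, featureCounts and GRCm38; versions, strand setting and the handling of reads that map to several places are not given in the sources used here. Families were taken from the names in the authors' TE annotation. Reads of similar elements can be split or lost, which affects related LTR rows most.

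The counts were analysed with edgeR 4.0.16 in R 4.3.3: filterByExpr (minimum count 10, minimum total 15), TMM within each table, a quasi-likelihood fit on all 4 libraries without block, and Benjamini-Hochberg adjustment over all tested rows, called at 0.05. DESeq2 1.42.0 served as an alternative, and the scripts were tested on simulated data. SE is the absolute log2 fold change over the square root of F. The limit of 3 counts covers counting error only. Groups and replicate numbers came from the sample titles, and p-values measure the spread between these cultures and clones. The named rows were all internal rows with their LTR sums, up to 10 lower and 10 higher called rows with the largest change (10 counts or more in each library of the group with the higher level), the 10 most abundant rows, and RLTR13D5, RLTR13D6, RLTR9E, RLTR9D and RLTR17. Rows and gene lists were chosen with earlier results of these data known. Of 8 trophoblast genes 5 were tested and 2 were higher; of 5 neuroectoderm, 5 mesoderm and 5 fibroblast genes 4, 3 and 2 were tested, with 1, 1 and 0 higher and 1, 0 and 0 lower. Sequences of the elements were not used here. Alternatives were other scalings, filters, the Wald test, a replicate block and leaving out each library.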

Additional observations from a re-analysis of the deposited data

How the results depend on the processing

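RLTR rows were 0 higher and 10 lower with size factors of DESeq2 (all TE rows 22 and 35), 0 and 10 with no filter (17 and 33), 0 and 9 with at least 10 counts in every library (14 and 31), and 0 and 11 with the Wald test (14 and 35), where all TE rows were 28 higher and 44 lower at first. With totals of the TE table, 5 RLTR rows were higher, and all TE rows were 69 higher and 27 lower; with the scaling by the gene table, 25 RLTR rows and 174 TE rows were higher, and 9 of its 10 lower RLTR rows were shared with the 11. With totals of the gene table, an alternative added after seeing the data, 80 RLTR rows were higher and 3 lower, and all TE rows were 542 higher and 14 lower, with all medians moved up by 0.71. The median log2 fold change of RLTR rows was 0.16, 0.24 and 0.69 under these 3 scalings.

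The replicate numbers did not pair the samples: the deviations of equally numbered libraries had a correlation of 0.02 over 828 TE rows. The replicate block gave 3 higher and 16 lower RLTR rows, all 11 among the latter, and 45 and 63 of all TE rows. Leaving out 1 library gave 0 to 7 higher and 0 to 24 lower RLTR rows, and 0 to 68 higher and 0 to 94 lower TE rows; the lone library was assumed to vary like the other group. The silencing genes were then 0 to 7 higher and 1 to 21 lower, and with totals of the gene table, 10 higher and 3 lower. Among all tested genes, the shares called in either direction also fell without either WT library and rose without either Pim3-/- library. Those shares were 17.6% higher and 16.2% lower in the main fit, and 35.8% and 5.93% with totals of the gene table. No conclusion about the silencing list is therefore drawn from its numbers of calls without 1 library. The fits with the block, with the scalings by the gene table and without either Pim3-/- library estimated no spread of the variance between rows.

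Against a single LTR row, the log2 ratio of internal to LTR counts differed by 0.029 for RLTR10-int and by -0.27 for RLTR19-int. Against all RLTR1 LTR rows, added after seeing the data, it differed by 0.53 for RLTR1B-int. With totals of the gene table the sign turned for RLTR10F (0.012), RLTR11A (0.080), RLTR9E (0.38), RLTR9D (0.38), RLTR17 (0.47), RLTR11A2 (0.53) and RLTR25B (0.65). With the scaling by the gene table it turned for RLTR17 (0.023), RLTR11A2 (0.074) and RLTR25B (0.20), and RLTR25B was at 0.12 with totals of the TE table. Leaving out 1 library gave RLTR25B values from -0.17 to 0.033, positive without WT 2 and without Pim3-/- 2 (0.027). The other 287 values of named rows kept their sign, of which 225 kept their side of the threshold, 36 lost and 26 gained a call. The cause of these changes was not tested beyond the settings themselves. Counts of 3 or fewer limit the rows below 10 CPM.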
